A study of Mus musculus with 6 samples.

Results

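A set of macrophage nuclei selected on a panel with Spp1, Plau, Myo18b, Htr2b, Cd36 and Hmox1 was followed through 6 single-nucleus libraries from mouse cortical lesions. A barcode was a member when it had at least 1000 unique molecular identifiers (UMIs, which count captured RNA molecules) and under 5% mitochondrial UMIs, and when 3 gene rules were met. At least 2 of 4 leukocyte and macrophage genes had to be detected (Ptprc, Csf1r, Dock2, Gpnmb; the gate), with at least 4 of 8 panel genes (Spp1, Plau, Myo18b, Htr2b, Hectd2os, Cd36, Hmox1, Fam20c) and at most 1 of 8 exclusion genes (P2ry12, Sall1, Siglech, Cd163, F13a1, Fabp4, Slamf8, Col1a2). Of 67360 barcodes, 60729 passed the UMI and mitochondrial filter, 32623 of these passed the gate, and 2268 were members, which is 6.95% of the gated nuclei. The members were thus chosen by their measured counts of these 20 genes, so levels of the rule genes are a description here and carry no test.

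The lesions were made in adult mice by photothrombosis, in which light and a dye close cortical vessels, and nuclei were sorted on DAPI. Every group shared this injury and the sort. At 7 and 21 days post injury (dpi) there were 3 groups. Ctrl mice were labelled wild-type with no treatment. ADWA11 mice were wild-type and received an antibody that blocks integrin αvβ8, a surface receptor that releases active TGFβ from its latent form. Tgfbr2-cKO mice carried Col1a2(creER) and Tgfbr2(flox), a Cre whose promoter is used by fibroblasts and which deletes the type II TGFβ receptor where it is active. The study induced this Cre with tamoxifen, in its main lesion experiments before and after injury, and gives no separate schedule for these libraries. It describes controls of its knockout strains as given tamoxifen where relevant, while the Ctrl label here names no treatment. Each library pooled 1 male and 1 female mouse and each group was 1 library, so a difference between 2 libraries could not be set against the spread between mice. The labels give neither the exact age of the mice nor the floxed exon, and counts from the 3′ end of Tgfbr2 therefore did not check the deletion. Among nuclei with fibroblast genes, Tgfbr2 levels at 7 dpi were 293 counts per 1000000 UMIs (CPM) for Ctrl, 229 for ADWA11 and 148 for Tgfbr2-cKO, and at 21 dpi 202, 187 and 165. Members had 342, 299 and 157 CPM and then 243, 311 and 282, so in both kinds of nuclei the Tgfbr2-cKO library was lowest at 7 dpi. In members without markers of other cells, described below, they were 339.5, 303 and 275 CPM at 7 dpi.

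Macrophages of a brain lesion come from blood monocytes, from the borders of the brain and from microglia, and all clear dead cells, myelin, fat and iron while the scar forms. Spp1 encodes osteopontin, a secreted matrix protein of macrophages in fibrotic and injured tissue, and Plau encodes urokinase, which activates plasminogen and so starts the breakdown of fibrin and matrix. Cd36 encodes a scavenger receptor for oxidised lipids, Hmox1 the heme-degrading enzyme, Htr2b a serotonin receptor, Fam20c a kinase of secreted proteins and Gpnmb a glycoprotein of lipid-loaded macrophages. TGFβ keeps microglia in their resting identity and acts widely on macrophages, and integrin αvβ8 is one of the switches that free it.

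Start-site sequences were available for 8 of the 12 panel and gate genes, from RefSeq on GRCm38.p6, in windows of 250 bases before to 50 bases after a start. The 3 windows shown are those that held a motif searched for because its factors act in macrophages, with the match in capitals. These were the loose AP-1 pattern TGANTCA, in which N is any base, the PU.1-type site GAGGAAGT and the MiT-factor E-box TCATGTG, read on both strands. The Spp1 window (chr5:104434861-104435160, plus strand) held the PU.1-type letters 113 bases before the start. The Htr2b window (chr1:86111931-86112230, minus strand) matched the loose AP-1 pattern, with A as the middle base, 163 bases before the start. The Gpnmb window (chr6:49036268-49036567, plus strand) matched it with C as the middle base, 8 bases after the start.
Spp1: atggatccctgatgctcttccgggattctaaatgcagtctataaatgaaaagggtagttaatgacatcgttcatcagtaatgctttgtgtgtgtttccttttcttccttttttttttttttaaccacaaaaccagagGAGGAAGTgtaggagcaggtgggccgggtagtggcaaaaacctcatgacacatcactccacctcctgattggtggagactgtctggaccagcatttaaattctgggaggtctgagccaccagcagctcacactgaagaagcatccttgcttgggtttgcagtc
Htr2b: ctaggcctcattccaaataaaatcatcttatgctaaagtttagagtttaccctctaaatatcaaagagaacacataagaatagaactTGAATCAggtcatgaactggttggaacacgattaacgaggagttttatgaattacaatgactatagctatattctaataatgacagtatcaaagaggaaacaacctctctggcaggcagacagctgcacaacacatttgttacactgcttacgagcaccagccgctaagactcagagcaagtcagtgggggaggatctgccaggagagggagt
Gpnmb: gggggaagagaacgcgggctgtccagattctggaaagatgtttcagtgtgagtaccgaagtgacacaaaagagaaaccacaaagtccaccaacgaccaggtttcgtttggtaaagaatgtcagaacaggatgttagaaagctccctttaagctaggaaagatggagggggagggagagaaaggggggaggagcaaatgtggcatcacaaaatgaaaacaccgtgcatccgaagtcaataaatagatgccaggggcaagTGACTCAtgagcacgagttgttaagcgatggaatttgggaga
Of 32851 promoter windows of this length, 7.81% held the AP-1 letters, 3.20% the PU.1-type letters and 3.77% the E-box, which none of the 10 windows of rule genes held. A match is a string of letters and not a bound site.

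Libraries held 64798965 to 140310354 UMIs, and the median member had 7076, 8497 and 5628 UMIs at 7 dpi and 6368, 7414 and 8486 at 21 dpi, in the order Ctrl, ADWA11, Tgfbr2-cKO. Wherever 3 values are given for a time below, they keep this order. Between 21 and 61 barcode sequences were shared by any 2 libraries and none belonged to members of both. Nuclei scored as doublets made up 8.03% to 20.6% of members. Nuclei with neuron or glial markers and no gate gene were 51.2% of the Tgfbr2-cKO library at 7 dpi and 27.2% at 21 dpi, against 2.20% to 7.96% in the other four, so these libraries stood apart in tissue content. Members followed this in part. The 8 neuron genes summed to 2751 CPM in Tgfbr2-cKO members at 7 dpi and 319 at 21 dpi, against 12.6 to 58.2 elsewhere, and 131 of the 344 Tgfbr2-cKO members at 7 dpi carried at least 2 of these genes. The 8 fibroblast genes summed to 39.6 and 62.0 CPM in the Tgfbr2-cKO members and to 426 to 1172 in the others, with 83, 116, 99 and 22 members carrying at least 3 of them in Ctrl and ADWA11 at 7 dpi and Ctrl and ADWA11 at 21 dpi. Members without any of these marks of other cells (396, 713 and 204 at 7 dpi, 193, 138 and 98 at 21 dpi, in the order Ctrl, ADWA11, Tgfbr2-cKO) were therefore examined beside all members. They are called unmixed members below. From Xist and Y-linked genes, 20 of the 165 ADWA11 members at 21 dpi came from the female and 122 from the male, and both mice gave at least 42 members in every other library.

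The rule asked for 4 panel genes, and 1202 members had exactly 4, 602 had 5, 302 had 6, 137 had 7 and 25 had all 8. Just outside the rule stood 2084 nuclei with 3 panel genes, whose median depth was 5903 UMIs against 6889 in members with 4, and 1627 nuclei with 2 exclusion genes. No exclusion gene was found in 688 members. Among the remainder Col1a2, a collagen gene of fibroblasts, was the commonest, in 716 members (200, 248 and 7 at 7 dpi and 197, 56 and 8 at 21 dpi in Ctrl, ADWA11 and Tgfbr2-cKO). Nuclei with neuron markers and no gate gene, in which free RNA can be read, had Col1a2 in 4.55% to 72.4% by library. The commonest set of panel genes was Spp1 with Cd36, Hmox1 and Fam20c, in 164 members. By library, Spp1 was detected in 83.0% to 99.4% of members and Fam20c in 79.9% to 87.9%. Plau was detected in 35.5% to 56.4% and Myo18b in 10.3% to 43.6%. In nuclei with neuron markers and no gate gene Spp1 was detected in 22.9% to 90.9% and Fam20c in 19% to 36.4%.

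Spp1 (chr5:104435118-104441050) stood in members at 2691, 2083 and 1600 CPM at 7 dpi and at 1262, 701 and 2077 at 21 dpi, and in all other gated nuclei at 113 to 1112. Plau (chr14:20836660-20843385) stood at 292, 217 and 113 CPM and then at 173, 134 and 165, against 11.3 to 58.7 in the other gated nuclei. Both were highest in Ctrl at 7 dpi over all members, but in unmixed members Spp1 stood at 2850, 2203 and 3040 CPM at 7 dpi and was highest in Tgfbr2-cKO. Myo18b, an unconventional myosin, stood at 121, 104 and 92.7 CPM at 7 dpi and at 29.6, 18.6 and 38.4 at 21 dpi, so each library at 21 dpi was below each at 7 dpi. Htr2b stood at 159, 39.1 and 137 CPM and then at 247, 75.0 and 166, with both ADWA11 libraries below all others. Cd36 ran the other way and was highest in ADWA11, at 515, 1880 and 238 CPM and then 483, 1096 and 125. Hmox1 stood at 284, 388 and 191 CPM and then at 86.9, 148 and 184. Fam20c stood at 271 to 554 CPM and the antisense transcript Hectd2os at 86.9 to 294 CPM. Of the gate genes, Gpnmb stood at 2099 to 4293 CPM and exceeded the other gated nuclei in every library (454 to 2166), while Csf1r, the receptor for the macrophage growth factor CSF1, stood at 122 to 201 CPM and was lower than in the other gated nuclei in 6 of 6. The rule needs detections, so deeper nuclei enter it more easily.

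**Figure D1:**
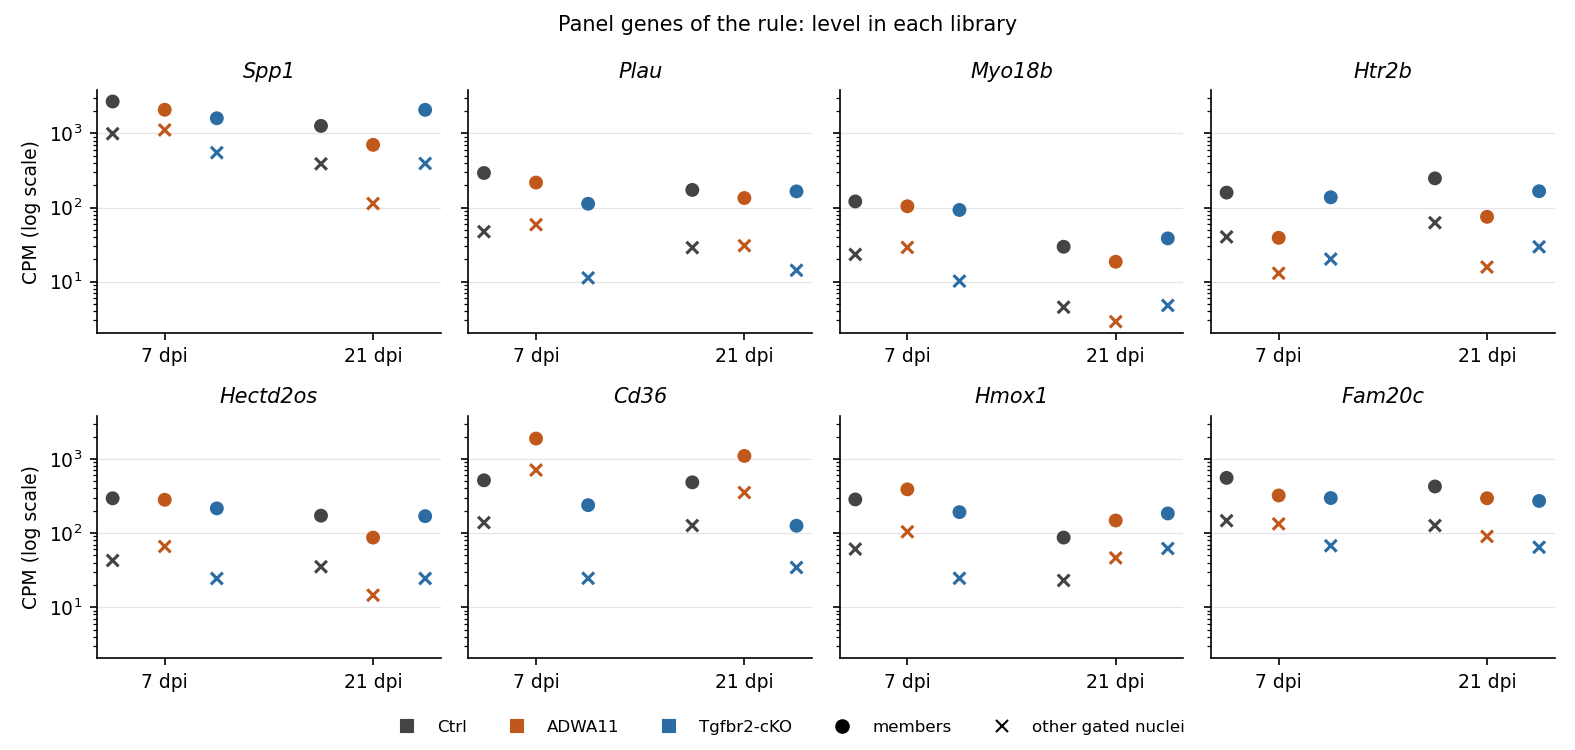
Levels of the 8 panel genes (CPM, log axis) at 7 and 21 dpi in members (circles) and all other gated nuclei (crosses), coloured by condition, with 1 library per point. Circles lie above the crosses of their library for each gene, which the rule fixed, and Cd36 is highest in ADWA11 while Htr2b is lowest there.

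Outside the rule genes and among genes with at least 200 member UMIs, Olfr132 and Mmp12 had the highest median ratios of members over all other gated nuclei. Because the members were cut from these nuclei, this is a description. Olfr132, annotated as an olfactory receptor gene, stood at 16.0, 11.3 and 14.1 CPM at 7 dpi, with Ctrl highest and ADWA11 lowest (2.23 CPM) at 21 dpi, against 0.137 to 2.68 in the other gated nuclei, with a median log2 ratio over the 6 libraries of 2.99. Mmp12, the macrophage elastase, stood at 536, 531 and 746 CPM at 7 dpi and at 507, 1475 and 252 at 21 dpi, against 17.4 to 309 in the other gated nuclei. Its median log2 ratio was 2.83. Mamdc2, a secreted matrix protein, stood at 233, 109 and 122 CPM and then at 882, 992 and 318, so each library was higher at 21 dpi than that of the same condition at 7 dpi. The median log2 ratio was 2.04, and that of the transcript Gm50445, annotated on the opposite strand within its span, was 2.13. Hilpda, which coats lipid droplets and blocks their lipase, had a median log2 ratio of 1.85, Rgs1, a brake on chemokine receptor signalling, 1.91, and Plk2, a stress-induced kinase, 1.66. Each of these was higher in members in 6 of 6 libraries. The remaining leading genes were Serpinb1c (1.95), Gm17749 (1.91), Pkp2 and Chst3 (1.60 each), and Arg1, the arginase of alternatively activated macrophages (1.63), which was higher in 4 of 6. The 12 leading genes were not tested for a shared function. Mrc1, the mannose receptor, was among the lowest, with a median log2 ratio of −2.35.

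Microglial genes outside the rule were present in members. Fcrls stood at 6.68 to 266 CPM, while the homeostatic genes Cx3cr1 (11.1 to 168 CPM) and Tmem119 (1.52 to 19.9 CPM) were below microglia-type nuclei in 6 and in 5 of 6 libraries. Microglia-type here means gated non-members with at least 2 of P2ry12, Sall1 and Siglech and at most 1 of Cd163, F13a1, Fabp4, Slamf8 and Col1a2. Ccr2, the chemokine receptor of blood monocytes, stood at 1.20 to 10.2 CPM and was below the other gated nuclei in 6 of 6 libraries. The lists for T cells, dendritic cells and B cells summed to at most 94.8, 40.2 and 61.4 CPM in members, the neutrophil list to 87.0 to 216, the astrocyte list to 83.9 to 702 and the oligodendrocyte list to 391 to 1035, and their part in the results was not tested. The markers do not separate monocyte-derived from microglial origin, so the name macrophage is used for the set as the rule defines it.

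The share of members among gated nuclei was lower at 21 than at 7 dpi in each condition. At 7 dpi it was 9.27% in Ctrl (95% interval 8.50% to 10.1%) and 11.6% in ADWA11 (10.9% to 12.4%), while Tgfbr2-cKO had 11.2% (10.1% to 12.3%). At 21 dpi it was 5.56% in Ctrl (4.96% to 6.21%) and 1.88% in ADWA11 (1.61% to 2.19%), while Tgfbr2-cKO had 4.50% (3.78% to 5.31%). These intervals are exact binomial ones, and like all intervals below they cover counting error only and not the spread between mice. Both treated groups share the Ctrl library at each time.

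The ADWA11 share was above Ctrl at 7 dpi and far below it at 21 dpi. Its log2 ratio to Ctrl was 0.33 (interval 0.16 to 0.49) at 7 dpi. At 21 dpi it was −1.56 (−1.85 to −1.28), and it became −1.86 when each nucleus was thinned to 3000 UMIs and −1.20 among unmixed members. At 7 dpi the interval held 0 in nuclei called female (0.18, −0.06 to 0.42), in those called male (0.20, −0.09 to 0.49) and with no exclusion gene allowed (0.14, −0.17 to 0.45). Of gated nuclei with at least 4 panel genes, which differ from members only by the exclusion genes, members were 43.7%, 39.0% and 75.1% at 7 dpi and 47.5%, 27.9% and 64.9% at 21 dpi. This is the share that passed the exclusion genes. On this base ADWA11 was below Ctrl at both times and Ctrl was not lower at 21 dpi. As a share of gated nuclei, those with at least 4 panel genes and any exclusion genes gave 0.49 (0.39 to 0.60) for ADWA11 at 7 dpi. At 21 dpi they gave −0.80 (−0.96 to −0.63), a smaller fall than in members. For Ctrl at 21 against 7 dpi they gave −0.86. In the ADWA11 library of 21 dpi 2761 gated nuclei were Fabp4-type (at least 2 of Fabp4, Slamf8 and Cd5l), against 177 in Ctrl at 21 dpi. Fabp4 and Slamf8 are exclusion genes and Cd5l was itself higher in ADWA11, so the denominator and the rule both moved with this class, and its part in the share was not tested.

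For Tgfbr2-cKO the share depended on the setting. As counted, the log2 ratio to Ctrl was 0.27 (0.06 to 0.47) at 7 dpi and −0.31 (−0.61 to −0.01) at 21 dpi. At 3000 UMIs it was −0.01 and −1.23, without Col1a2 among the exclusion genes −0.31 and −0.98, and over unmixed members −0.19 at 7 dpi. With no exclusion gene allowed it was 1.15 (0.83 to 1.48) and 0.99 (0.40 to 1.58), so it took both signs at each time. Gated nuclei with at least 4 panel genes and any exclusion genes gave −0.51 (−0.67 to −0.36) and −0.76 (−0.99 to −0.53). Over all nuclei, in which the neuron and glial nuclei of that library count, members were 6.15%, 7.73% and 3.17% at 7 dpi and 2.45%, 1.30% and 2.10% at 21 dpi, and the Tgfbr2-cKO ratio at 7 dpi was −0.96 (−1.16 to −0.75). In dissected tissue, fewer members and more of other nuclei cannot be told apart.

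**Figure D2:**
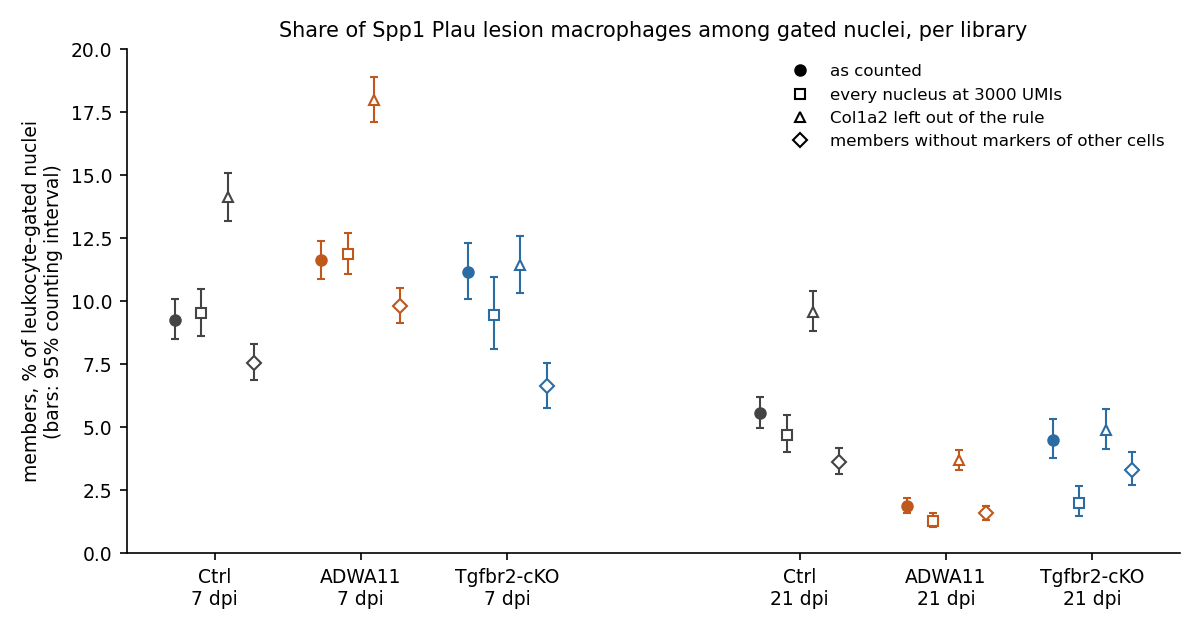
Members as a percentage of gated nuclei in each library under 4 settings, with 95% counting intervals as bars. Under each setting every library at 21 dpi lies below the same condition at 7 dpi and ADWA11 is lowest at 21 dpi, while the order of Tgfbr2-cKO and Ctrl at 7 dpi changes.

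Cell cycle genes were detected in more Ctrl and ADWA11 members at 7 than at 21 dpi, and the shares at the 2 times lay closest in Tgfbr2-cKO. At 3000 UMIs per nucleus, at least 2 of 18 cell cycle genes were detected in 32.4% of Ctrl members (28.1% to 36.9%), 46.8% of ADWA11 members (43.4% to 50.3%) and 19.1% of Tgfbr2-cKO members (14.9% to 24.0%). At 21 dpi the shares were 11.2%, 13.1% and 17.8%. These shares cover all members, mixed ones included, and were not computed for unmixed members. Thinning left out 4 to 41 members per library, and unthinned shares were 51.2%, 67.7% and 39.2% and then 25%, 35.8% and 45.1%. Microglia-type nuclei, treated alike, gave 25.1%, 33.0% and 19.1% at 7 dpi and 10.1%, 16.7% and 9.96% at 21 dpi. In the counts summed over all members, mixed ones included (40.7% in Tgfbr2-cKO at 7 dpi), the 18 genes stood at 1445, 2324 and 637 CPM at 7 dpi and at 419, 396 and 676 at 21 dpi. The ADWA11 library at 7 dpi was thus the highest and the Ctrl members at 21 dpi were about as low as ADWA11.

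**Figure D3:**
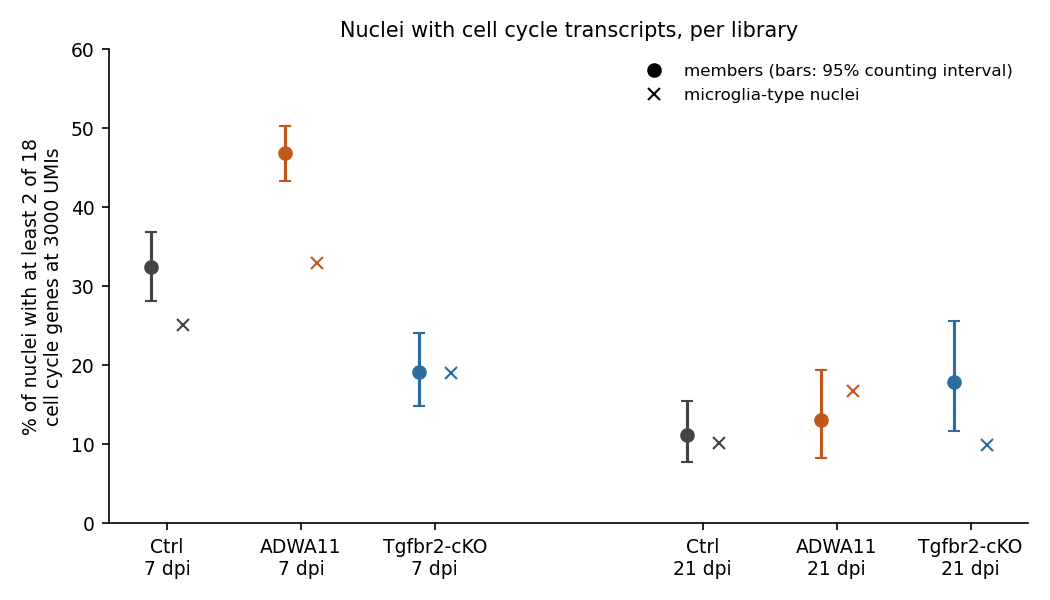
Share of all members, mixed ones included, with at least 2 of 18 cell cycle genes after thinning to 3000 UMIs (percent, circles with 95% counting intervals), with microglia-type nuclei as crosses. ADWA11 members at 7 dpi reach 46.8% and Tgfbr2-cKO members move least between the times.

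At 7 dpi, 5 of 11 heme and iron genes were higher in ADWA11 than in Ctrl members, as were Mrc1, Selenop and the chemokines Ccl6 and Ccl9, while 4 of 16 TGFβ signalling and 5 of 9 microglial genes were lower. Here a gene was counted as higher or lower when its CPM differed at least 2-fold with a counting interval of the ratio that left out 1, among genes with at least 50 UMIs in the 2 libraries. Of 11609 genes outside the rule, 598 were higher (5.15%) and 337 lower (2.90%).

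Mrc1 (chr2:14229392-14332057) stood at 27.7, 396 and 8.40 CPM in members at 7 dpi and at 70.7, 598 and 53.9 at 21 dpi, so both ADWA11 libraries were above all others. Its log2 ratio at 7 dpi was 3.84 (3.56 to 4.13). Selenop, the selenium carrier protein, stood at 30.6, 306 and 16.5 CPM and then at 158, 733 and 169, with a log2 ratio of 3.32 (3.05 to 3.60). The chemokine Ccl6 stood at 2.35 and 46.6 CPM, a log2 ratio of 4.31 (3.37 to 5.45), and its neighbour Ccl9 had a log2 ratio of 2.81 (2.17 to 3.52). Cfap299 (20.2 against 2.35 CPM) and Hlf (2.97) were the remaining named increases, of 6 taken per direction by size. Hlf rested mostly on mixed members, with 130 against 8 UMIs over all members and 19 against 0 over unmixed members, under the minimum of 50, and its log2 ratio was 4.24 in nuclei called female and 1.56 in those called male.

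Of the heme and iron genes none was lower, with a median log2 ratio of 0.52 against 0.05 over all genes tested. Slc40a1, the iron exporter ferroportin, stood at 56.2, 294 and 17.7 CPM at 7 dpi and at 58.2, 337 and 103 at 21 dpi. The transferrin receptor Tfrc stood at 44.2, 148 and 35.7 CPM and then at 75.3, 450 and 74.5. For both genes the 2 ADWA11 libraries were above the other four. The ferritin degradation receptor Ncoa4 (log2 ratio 2.04), the ferroxidase Cp (1.70) and biliverdin reductase Blvrb (1.06) were higher too. Of 7 border macrophage genes 3 were higher (Mrc1, Folr2 and Pf4), but Pf4 stood at 0.95 in unmixed members, in which 2 were called. All 18 cell cycle genes had intervals above 0 with a median of 0.69, although only 2 reached 2-fold and the median was 0.06 in members with no exclusion gene. Of 16 lipid handling genes 1 was higher, the fatty acid receptor Pparg (1.36), and 1 lower, Olr1, a receptor for oxidised lipoprotein, which stood at 61.5 against 1.77 CPM (−5.12, −6.01 to −4.34). Despite this ratio Olr1 did not meet the rule for named genes, which limits the share of any single nucleus and asks for the same sign in both sexes. Lpl, which splits lipoprotein fat and was in the scar and lipid list, was higher (1.70).

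Of the 16 TGFβ signalling genes none was called higher and the median was −0.37, while Nrros (0.41) and Smad2 (0.25) had intervals above 0. The feedback inhibitor Smad7 stood at 155, 48.5 and 144 CPM at 7 dpi and at 84.6, 23.0 and 87.8 at 21 dpi. Skil, also of this list, stood at 162, 64.8 and 131 CPM and then at 136, 60.1 and 155. The other 2 were the latent TGFβ binding proteins Ltbp1 (−1.62) and Ltbp2 (−1.34), neither of them called in unmixed members. Pmepa1, a TGFβ-induced inhibitor of SMAD signalling that was in no list, stood at 367, 28.8 and 191 CPM and then at 151, 22.3 and 159, a log2 ratio at 7 dpi of −3.67 (−3.88 to −3.47). In these 3 genes the ADWA11 libraries were the 2 lowest. The microglia list had 5 of 9 genes lower (4 of 8 in unmixed members), with a median of −1.40, among them Cx3cr1 (118 against 34.4 CPM), Fcrls (258 against 68.6 CPM) and Sparc (108 against 41.1 CPM). Mlxipl (−4.04), a glucose-sensing transcription factor, Chst1 (−4.01), the proteoglycan Cspg4 (−3.79), the VEGF receptor Flt1 (−3.24) and Whrn (−3.08) were the other genes named by the rule. Arg1 stood at 71.1 against 7.58 CPM and, like Olr1, did not meet the rule for named genes. Among growth factors, Pdgfc (1.87) and Gdf15 (3.29) were higher and Tgfbi (−1.91), Pdgfa (−1.97) and Thbs1 (−1.52) lower. Over all members the inflammatory, glycolysis and lysosome lists had no gene lower, and at most 1 of 16 higher.

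All other gated nuclei differed the same way in the genes above that were compared. In the same libraries their log2 ratios at 7 dpi were 1.97 for Mrc1, 2.49 for Selenop, 2.52 for Slc40a1, 1.65 for Tfrc, −2.53 for Pmepa1, −1.44 for Smad7, −1.37 for Skil and −1.70 for Fcrls. Nuclei with neural markers and no gate gene, in which free RNA can be read, gave 1.74, 1.70, 0.42, 0.02, −1.22, −0.76, −0.85 and −2.01 for the same genes, at levels for Mrc1 of 3.72 and 12.5 CPM. Over unmixed members 655 of 10566 genes were higher (6.20%) and 243 lower (2.30%), and Pmepa1 stood at −4.55. Arg1 was one gene whose ratio was smaller elsewhere, at −0.26 in the other gated nuclei against −3.23 in members, and this difference was not tested.

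**Figure D4:**
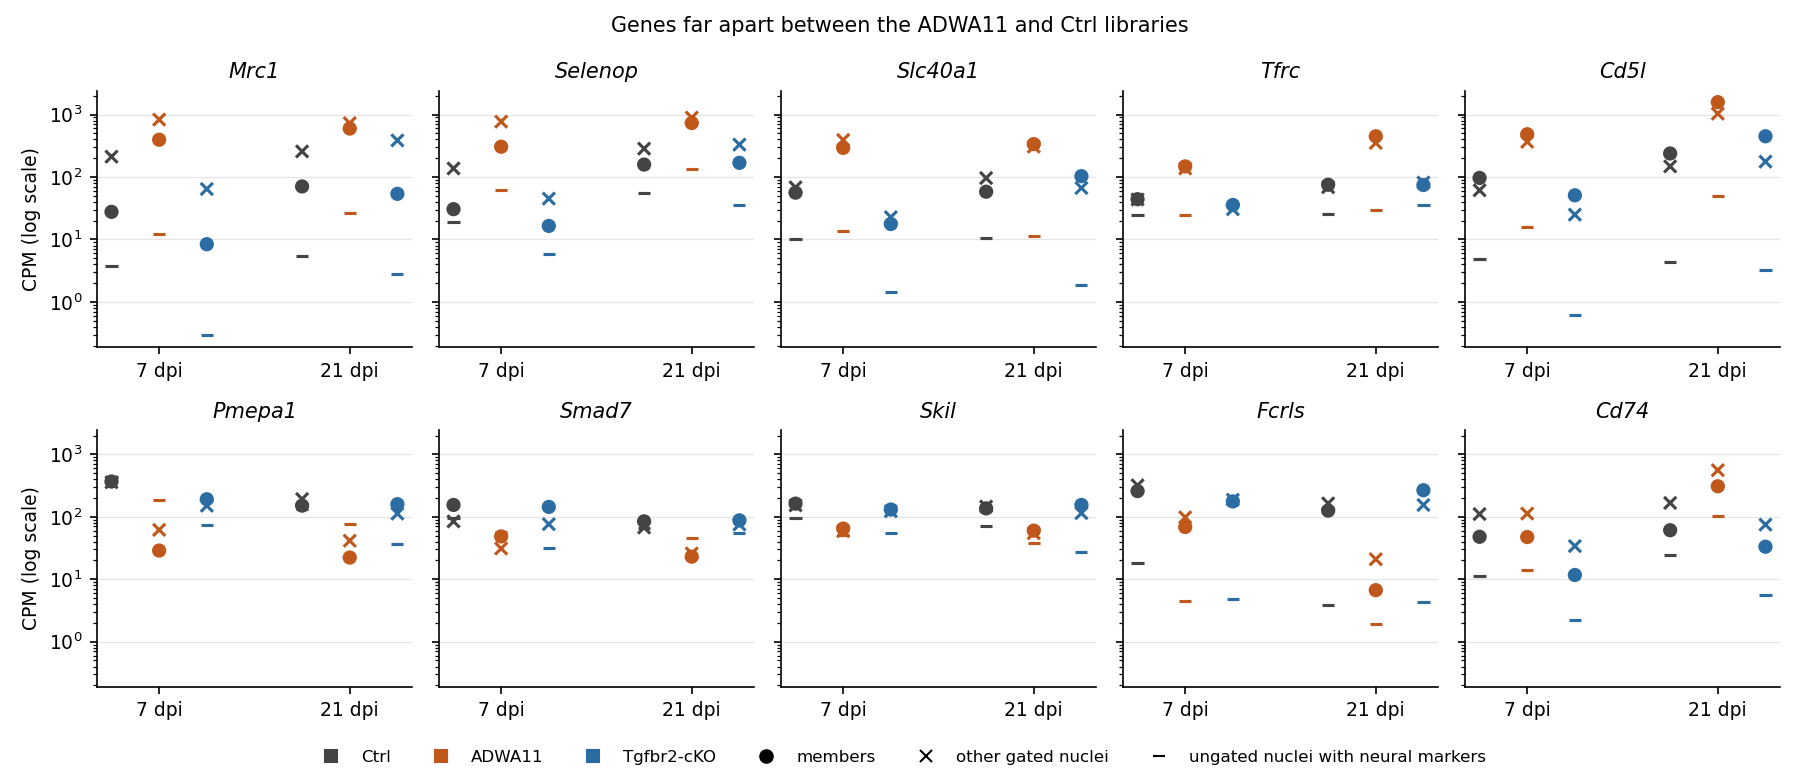
Levels of 10 genes (CPM, log axis) in Ctrl, ADWA11 and Tgfbr2-cKO libraries at 7 and 21 dpi, for members (circles), all other gated nuclei (crosses) and neural nuclei without gate genes (dashes). Mrc1, Selenop, Slc40a1, Tfrc and Cd5l lie highest and Pmepa1, Smad7, Skil and Fcrls lowest in ADWA11 members at each time, and the ADWA11 crosses of these genes lie on the same side of Ctrl.

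At 21 dpi, 5 of 7 cytokine and 6 of 12 antigen presentation genes were higher in the 165 ADWA11 members than in the 296 Ctrl members, and microglial and TGFβ feedback genes were again lower. Of 8340 genes, 217 were higher (2.60%) and 803 lower (9.63%), and among unmixed members 178 of 6374 were higher (2.79%) and 339 lower (5.32%).

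Cd5l, a secreted scavenger protein of tissue macrophages, stood at 96.8, 485 and 51.0 CPM at 7 dpi and at 239, 1583 and 450 at 21 dpi, a log2 ratio at 21 dpi of 2.73 (2.59 to 2.87). Aoah, which inactivates bacterial lipopolysaccharide, stood at 177 against 1111 CPM (2.65, 2.49 to 2.82). Tfrc (2.58), Slc40a1 (2.53), the lectin Clec4a3 (2.54) and the complement factor properdin Cfp (2.54) were the other named increases. In the antigen presentation list 6 of 12 genes were higher, none lower, and the median was 1.33 against −0.06 over all genes tested. The invariant chain Cd74 stood at 61.0 against 309 CPM, H2-Aa at 24.5 against 114, H2-Eb1 at 16.2 against 140 and the class II transactivator Ciita at 6.93 against 76.5. H2-Eb1 and Ciita did not meet the rule for named genes, despite ratios above that of Cd5l. That rule limits the share of UMIs in any single nucleus and asks for the same sign in both sexes. In the cytokine list 5 of 7 were higher, with a median of 2.53, namely Ccl2 (2.53), Ccl3 (2.63), Ccl4 (3.22), Cxcl2 (4.30) and Il1a (1.07). Il1a stood at 0.46 in unmixed members, in which 4 of 7 were called, and Ccl4 at −1.91 in the few members called female against 3.87 in those called male. In members with no exclusion gene (49 in Ctrl and 37 in ADWA11) the median of the cytokine list was 0.68, and in the other gated nuclei it was 1.31. The antigen presentation list gave 1.98 and 1.30 in the same nuclei. Of 12 lipid handling genes Pparg (1.68), Nr1h3 (1.74) and Msr1 (1.04) were higher and none lower. Msr1 stood at 0.73 in unmixed members and at −0.75 in members called female, and Olr1, at 3 UMIs in ADWA11 and 46 in Ctrl, was under the minimum of 50. Of 12 genes of matrix proteolysis Mmp12 (1.54), Ctsk (1.88) and Mmp19 (1.57) were higher, with Mmp12 at −1.29 in members called female, and 2 were lower, among them the inhibitor Timp3 (−4.45), neither of them called in unmixed members. In members with no exclusion gene Il1a, Mmp19 and Timp3 took the opposite sign. Fabp4, of which the rule allows a detection only when no other exclusion gene is present, stood at 256 CPM in these members.

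On the lower side, Fcrls stood at 126 against 6.68 CPM and Cx3cr1 at 72.1 against 11.1 CPM, and 5 of 8 microglial genes were lower. The potassium channel gene Kcnma1 (−5.24, −6.46 to −4.25), the cytoskeletal gene Nav3 (−4.97) and Pald1 (−3.89) were among the named decreases. Cspg4 stood at 55.9 CPM in Ctrl and at 2 UMIs in all in ADWA11 members (−5.24, −8.30 to −3.35), and the transcript Gm2629 at 1 UMI against 105 (−6.03, −11.4 to −3.52). Smad7 (−1.88), Skil (−1.18), Tgfbr1 (−1.23) and Itgb8 (−1.56) were among the 5 of 15 TGFβ genes that were lower. In unmixed members 3 of 11 were, and Itgb8, with too few UMIs there, was not among them. Only 20 of these ADWA11 members came from the female mouse, and the rule for named genes asked for the same sign in both mice. In the other gated nuclei the ratios were 2.80 for Cd5l, 2.07 for Aoah, 2.36 for Tfrc, 1.74 for Cd74 and −2.97 for Fcrls.

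Many of the genes named by size between Tgfbr2-cKO and Ctrl members at 7 dpi were genes of other cells. Of 10782 genes, 1455 were higher (13.5%) and 800 lower (7.42%), while unmixed members gave 208 higher (2.56%) and 248 lower (3.05%) of 8128. Increases named in unmixed members, Dpp10 (297 against 7.22 CPM), Nrg3, Dlg2, Nrg1, Snhg11 and Meg3, still held genes of neurons, and Col3a1 stood at −4.15 there. Unmixed members had a median of 4681 UMIs in Tgfbr2-cKO and 6919 in Ctrl. Over all members the named increases were neuronal or little-known genes, namely Dpp10, Slc35f3, Gm1043, Trank1, Spock1 and the neuronal chloride exporter Slc12a5. Dpp10, a subunit of neuronal potassium channels, stood at 4830 CPM against 8.63 in Ctrl members, at 5319 in the other gated nuclei and at 9650 in neural nuclei of the same library. The named decreases were the fibroblast collagens Col3a1 (−5.36), Col1a1 (−4.78) and Col5a2 (−4.20), with Prdm6 (−4.40), Slc1a5 (−3.82) and Anxa1 (−3.49). In unmixed members Slc1a5 stood at −4.14 and Anxa1 at −3.99, on 2 and 3 UMIs in Tgfbr2-cKO, and Prdm6 had 3 against 10 UMIs. Trimmed mean of M values scaling shifted all ratios by 0.22 and changed the share of higher among called genes from 64.5% to 77.1%. Over all genes tested the median was −0.21, and −0.03 in unmixed members. Medians of 8 lists changed sign between all and unmixed members, so for these no direction was given. They were the scar and lipid list (−0.74 and 0.16), microglia (−0.74 and 0.12), lipid handling (−0.56 and 0.13), TGFβ signalling (−0.59 and 0.09), matrix proteolysis (−0.64 and 0.05), macrophage transcription factors (−0.54 and 0.07), inflammatory cytokines (−0.42 and 0.16) and alternative activation (−0.40 and 0.37).

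Other groups kept their direction in both sets. Of 15 glycolysis and hypoxia genes 3 were higher, against 13.5% of all genes, and none was lower, with a median of 0.49. In unmixed members 4 of 14 were higher, with a median of 0.84. Egln3, an oxygen-sensing hydroxylase, stood at 50.5, 27.2 and 115 CPM at 7 dpi, and Ero1l, an oxidase of protein folding, at 77.9, 76.8 and 188. The lipid droplet gene Hilpda stood at 19.6, 25.4 and 63.6 CPM, and the glucose transporter Slc2a1 had a log2 ratio of 1.00. In the other gated nuclei Egln3 had a ratio of 0.03, Ero1l 0.29 and Hilpda 0.91, and the median of the list was 0.29. Interferon-stimulated genes had a median of 0.71 (1.11 unmixed), with Rsad2 and Oasl2 among the 3 of 7 called, and 0.75 in the other gated nuclei. Of 18 cell cycle genes 13 were lower over all members, with a median of −1.24, but 4 in unmixed members (Cenpe, Bub1, Tpx2 and Anln), with a median of −0.61. There Mki67 stood at −0.43 and Cenpf at 0.14. The median was −1.03 in the other gated nuclei. Over all members it was −1.31 in members called female and −0.07 in those called male. Mrc1 (−1.72), Itga4, an integrin of migrating leukocytes (−1.48), Ms4a7 (−1.87) and the membrane-bound metalloproteinase Mmp14 (−2.95) were lower in both sets. The unconventional myosin Myo1d stood at 352 against 23.5 CPM in unmixed members, a log2 ratio of −3.91 (−4.54 to −3.34).

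At 21 dpi, 327 of 8561 genes were higher (3.82%) and 474 lower (5.54%) in Tgfbr2-cKO members than in Ctrl members, and 121 (1.95%) and 174 (2.80%) of 6205 in unmixed members. The balance turned in other sets, with 285 higher and 198 lower without doublets, 208 and 178 in nuclei called male and 246 and 74 in members with no exclusion gene. Fkbp5, a glucocorticoid-induced co-chaperone, led the increases, at 172, 105 and 176 CPM at 7 dpi and at 105, 41.6 and 429 at 21 dpi, so this library was above all others (log2 ratio 2.02, 1.80 to 2.25). The ratio was 2.97 in members called female and 0.72, under 2-fold, in those called male. It was also higher in the other gated nuclei (2.25) and in neural nuclei (0.90). The other named increases were Cd33 (1.41), Cd300lf (1.32), St3gal5 (1.63), which makes the ganglioside GM3, 4933406I18Rik (1.46) and Cd86 (1.40). Cd86 stood at 0.89 in unmixed members, under 2-fold, and at 0.14 in members called female against 2.11 in those called male. Cytokine genes were higher in 3 of 5, namely Ccl4 (2.31), Tnf (1.26) and Il1a (1.24), with a median of 1.24 and 0.98 among unmixed members. Il1a stood at 0.98 there, so 2 of 5 were called, and in members called female Ccl4 stood at −0.12 and Tnf at −2.53. Cell cycle genes had 3 of 11 higher (5 of 11 unmixed) and a median of 0.79 (0.89 unmixed), against −0.68 in the other gated nuclei. Cd36, a panel gene of the rule and so given as a description, stood at 125 against 483 CPM (−1.95). The skeletal transcription factor Runx2 was lower (−2.54, and −1.19 in unmixed members). The decreases with the largest ratios were again genes of fibroblasts, Col3a1 (−5.65), Col1a1 (−5.28), Eya2 (−4.88) and Tbx15 (−4.12), with Bgn and Tspan11 at 2 UMIs in the Tgfbr2-cKO members. Of these 6, all but the collagens had fewer than 50 UMIs in unmixed members.

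**Figure D5:**
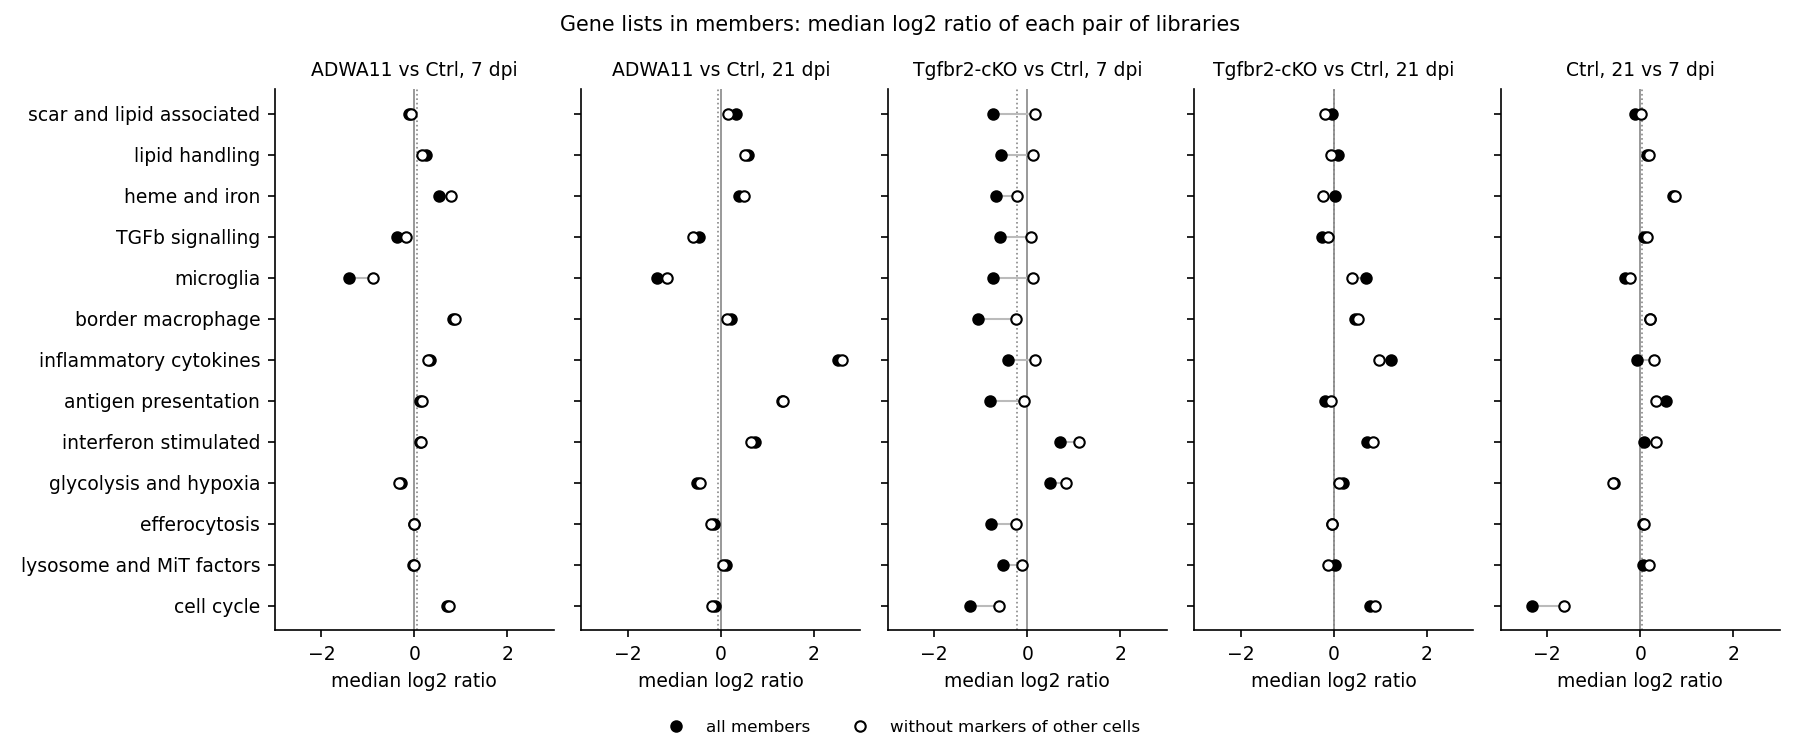
Median log2 ratio of 13 gene lists (x axis, log2 of CPM ratios) in 5 comparisons of 2 libraries, for all members (filled) and unmixed members (open), with the median of all genes tested as a dotted line. Cell cycle lies furthest left in Ctrl at 21 against 7 dpi, at −2.32, and the cytokine list furthest right in ADWA11 at 21 dpi, at 2.53.

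In Ctrl members, 17 of 18 cell cycle genes were lower at 21 than at 7 dpi, as were 2 of 14 glycolysis and hypoxia genes, with a median of −0.56, and 3 of 11 heme and iron genes were higher, with a median of 0.70. From 7 to 21 dpi, 743 of 9948 genes were higher (7.47%) and 343 lower (3.45%), while the counts were 387 and 397 without doublets, 383 (4.62%) and 313 (3.78%) of 8288 in unmixed members and 143 and 271 in members with no exclusion gene. The median of the cell cycle genes was −2.32 (−1.64 in unmixed members, with 16 of 18 lower), and Mki67, the proliferation antigen, had a log2 ratio of −2.83 (−3.36 to −2.35). Named decreases were the mitotic genes Ttk, Bub1 and Ndc80, the replication and repair genes Pole and Neil3, and the protease Adamts16 (−4.17). Arg1 was lower (−3.94), as were Plin2, a lipid droplet coat (−1.24), and the scavenger receptor Stab1 (−1.48). Despite its ratio Arg1 did not meet the rule for named genes here either. The higher heme and iron genes were Cp (16.2 and 92.0 CPM, but 10.7 and 29.0 in unmixed members), Ncoa4 (a log2 ratio of 1.30) and Blvrb (1.08). The ferritin light chain Ftl1 went the other way, at 759 and 513 CPM, as did the rule gene Hmox1, and Axl, a receptor for dying cells, was higher (1.34). Igkc and Ptgds led the increases at 6.01 and 5.39, but both are genes of other cells, plasma cells and meningeal cells, and stood at 50.2 and 399 CPM in neural nuclei of the same library against 67.5 and 197 in members. Clec2d, a ligand of killer-cell receptors, stood at 29.8 CPM at 7 dpi and 189 at 21 dpi, and in the other gated nuclei at 45.9 and 187. ADWA11 members had 18 of 18 cell cycle genes lower at 21 than at 7 dpi, against 10.7% of all genes tested (4.85% were higher), with a median of −2.85. Tgfbr2-cKO members had 1 of 15 lower, against 13.7% of all genes tested (7.96% were higher), with a median of −0.14.

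Time was tested over the 3 conditions, with 3 libraries at each time. With condition as a block, edgeR's quasi-likelihood test called 0% of the 12416 genes outside the rule higher and 0% lower at an adjusted p under 0.05, and 1610 had an unadjusted p under 0.05. DESeq2 called 178 genes, 82 higher and 96 lower at 21 dpi. The residual held the condition by time difference and the spread between mice, which cannot be told apart. Counts were simulated for this design over 12177 genes, at a fixed dispersion and with no condition by time difference. There the test recovered 11.2% of genes changed by 1 and 84.5% of genes changed by 2 on the log2 scale. With that difference in the residual, as in the measured counts, recovery was not tested. Mki67 stood at a log2 change of −2.42 (SE 0.47), lower in 3 of 3 conditions, with an edgeR adjusted p of 0.276. Medians over lists were −1.83 for cell cycle, −0.78 for glycolysis and hypoxia, 1.20 for cytokines, 1.01 for antigen presentation and 0.77 for heme and iron, against −0.03 over all genes. In Ctrl alone the cytokine median was −0.07, over 7 genes, while the other lists named here kept their sign. Among unmixed members, a set added after seeing the data, edgeR called 40 of 9415 genes, 28 higher and 12 lower. Arg1 fell by 3.12 on the log2 scale (SE 0.35, edgeR adjusted p = 0.0294), and so did the growth factor Csf1 (−1.83), the integrin Itgav (−1.44) and the glycolytic Pkm (−0.96). Mgll, which releases fatty acids from monoglycerides, rose by 2.07 (SE 0.13, edgeR adjusted p = 0.00887), and so did the oxidase subunit Cybb (1.64), the phospholipid transfer protein Pltp (1.51), Axl (1.39) and Itgax (1.24). The 40 also held genes of other cells, the immunoglobulin genes Igkc (6.39) and Igha (5.30) and the fibroblast proteoglycan Dcn (2.36), which were higher, and the neuronal Rbfox1 (−2.14), which was lower. With the Ctrl library of 7 dpi left out, 107 genes were called over all members, and with that of 21 dpi left out, 127.

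Each condition was also tested over its libraries at both times with time as a block, a test added after the values were seen. Its residual likewise held the condition by time difference. For ADWA11 against Ctrl, edgeR called 0% of 13327 genes higher and 0% lower, with 807 at an unadjusted p under 0.05, and DESeq2 called 33 higher and 52 lower. Among unmixed members, a set also added after seeing the data, edgeR called 29 of 9990 genes higher and 41 lower. Of the genes described above, Pmepa1 fell by 4.57 on the log2 scale there (SE 0.24, edgeR adjusted p = 0.00388), and Smad7 (−1.93), Skil (−1.43), Tgfbr1 (−1.17) and Arg1 (−3.34) fell too. Mrc1 rose by 3.43 (SE 0.45, edgeR adjusted p = 0.0322), and so did Selenop (3.03), Cd5l, Tfrc (2.16) and Ncoa4 (2.23). Slc40a1 stood at 2.31 with an edgeR adjusted p of 0.0528 and Fcrls at −2.44 with one of 0.0946. For Tgfbr2-cKO against Ctrl, edgeR called 6 genes higher and 6 lower (0.045% each), among the lower ones the fibroblast collagens Col1a1 (−4.85) and Col3a1 (−5.41). Among unmixed members it called 0 of 9990, with 566 at an unadjusted p under 0.05. DESeq2 called 341 higher and 124 lower over all members. With the Ctrl library of 7 dpi left out, edgeR called 97 genes for ADWA11 and 22 for Tgfbr2-cKO. For Tgfbr2-cKO it called 464 without the Ctrl library of 21 dpi, 156 without its own library of 21 dpi and 0 without any 1 of the other three.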

How the data were processed

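Nuclei from 6 libraries of lesioned mouse brain were counted by the authors with Cell Ranger on mm10, after 10x Genomics 3′ v3.1 capture. The deposited values are UMI counts per gene and barcode, not normalised, for 32285 features. Per the file headers and the study's methods the version was 7.2.0, and per the submitters' processing notes 7.1.0. How Cell Ranger shared out reads of overlapping or near-identical genes was taken as it stood, and 32235 features were matched in GENCODE for coordinates. No cell annotation was used here, so classes were rebuilt, and differences from the study may come from rebuilt names. Depth was 64798965 to 140310354 UMIs per library.

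Barcodes were grouped by their library's labels and selected by the rule given above, with Python 3.11.15 (numpy 2.4.6, scipy 1.17.1, pandas 2.3.3, scikit-learn 1.9.0). The members and gene lists were chosen with earlier results of these data known. Counts were summed over members per library and given as CPM of non-mitochondrial UMIs. With 1 library per condition and time, the comparisons of 2 libraries carry no test, and shares have exact Clopper-Pearson and ratios exact conditional binomial 95% intervals. Time was tested with edgeR 4.0.16 in R 4.3.3 (quasi-likelihood, condition as a block, filterByExpr, TMM, Benjamini-Hochberg), and DESeq2 1.42.0 was an alternative. After seeing the data, conditions were tested likewise over both times, with time as a block. The script was tested on simulated data. Doublets were kept in the main values. As an alternative, the nuclei closest to simulated doublets (2 per nucleus) were left out, at 0.8% per 1000 barcodes. Mixed members carried at least 2 of 8 neuron genes, 3 of 8 fibroblast genes or 3 of 6 oligodendrocyte genes, a set added after seeing the data.

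Named genes were the rule genes, the members of 21 lists, 12 leading genes, and per comparison the 6 genes in each direction with the largest ratio. Leading genes had the highest median ratio of members over other gated nuclei, among genes with at least 200 member UMIs. The genes named per comparison needed 100 UMIs in the higher library, no nucleus with over 10% of them, and the same sign in nuclei called female and male. Rule, mitochondrial, Xist, Tsix and Y-linked genes were left out of these counts. The same rule was applied again to unmixed members. Values of some genes in these lists are not reported here.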

Additional observations from a re-analysis of the deposited data

Results flagged for a closer look

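The share of members among gated nuclei differed from Ctrl, as counted, in opposite directions at the 2 times in both treated groups. For ADWA11 the log2 ratio was 0.327 at 7 dpi and −1.56 at 21 dpi, and for Tgfbr2-cKO it was 0.268 and −0.306. For Tgfbr2-cKO the signs were not opposite at 3000 UMIs (−0.0107 and −1.23), without Col1a2 in the rule (−0.306 and −0.976) or with no exclusion gene allowed (1.15 and 0.988). Nor were they at 2000 UMIs (−0.0196 and −1.46), in female (−0.0243 and −0.910) or male nuclei (0.248 and 0.113), or in unmixed members. Of gated nuclei with at least 4 panel genes, the share that passed the exclusion genes did not have opposite signs in either group (−0.164 and −0.767 for ADWA11, 0.783 and 0.449 for Tgfbr2-cKO). Nuclei with at least 4 panel genes and any exclusion genes, as a share of gated nuclei, had opposite signs for ADWA11 (0.49 and −0.80). For Tgfbr2-cKO they did not (−0.51 and −0.76). Among the cell cycle genes, Tpx2, a spindle assembly factor, had a log2 ratio of Tgfbr2-cKO to Ctrl of −1.54 at 7 dpi and 1.04 at 21 dpi. Each side of these comparisons is 1 library, so the differences between the times were not tested.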

How the results depend on the processing

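Shares are given here as log2 ratios, in the order Tgfbr2-cKO to Ctrl at 7 dpi, ADWA11 to Ctrl at 7 dpi, the same pair at 21 dpi, and Ctrl at 21 against 7 dpi, and values that moved by less than the counting interval are left out. At 3000 UMIs the ratios over all nuclei were −1.70 for Tgfbr2-cKO at 7 dpi, −1.10 for it at 21 dpi and −1.71 for Ctrl over time, and over gated nuclei −0.0107, −1.23 and −1.02, with −1.86 for ADWA11 at 21 dpi. At 2000 UMIs they were −1.51, 0.507, −1.31 (Tgfbr2-cKO at 21 dpi) and −1.82 over all nuclei and −0.0196, 0.508, −1.46, −1.92 and −1.15 over gated nuclei. With no exclusion gene allowed they were −0.0705, 0.143, 1.07, −0.474 and −2.16 over all nuclei, and 1.15, 0.139, 0.988, −1.12 and −1.57 over gated nuclei. With at least 5 panel genes ADWA11 at 21 dpi stood at −1.29 and −1.94 and Ctrl over time at −2.16 and −1.58. In female nuclei Tgfbr2-cKO stood at −1.41 and −0.737 over all nuclei and −0.0243 and −0.910 over gated nuclei, and ADWA11 at 21 dpi at −2.16 and −2.60. In male nuclei ADWA11 over all nuclei stood at 0.131 and −0.510, and Tgfbr2-cKO at 21 dpi at 0.213 and, over gated nuclei, 0.113. Chosen after seeing the data, the rule without Col1a2 gave −1.53 and −0.893 for Tgfbr2-cKO over all and −0.306 and −0.976 over gated nuclei, and unmixed members gave −1.41, −0.552 (ADWA11 at 21 dpi) and −1.65 (time) over all and −0.191, −1.20 and −1.06 over gated nuclei. Without neural nuclei in the denominator Tgfbr2-cKO stood at −0.0174 and 0.115. So the direction for Tgfbr2-cKO depended on the setting, while by value ADWA11 was above Ctrl at 7 dpi and below it at 21 dpi, and Ctrl lower at 21 than at 7 dpi, in each of these settings over all and over gated nuclei. The ADWA11 intervals held 0 at 7 dpi with no exclusion gene allowed, in female and in male nuclei, and at 21 dpi over all nuclei with no exclusion gene. Of gated nuclei with at least 4 panel genes, the share that passed the exclusion genes gave −0.164 for ADWA11 at 7 dpi and 0.122 for Ctrl over time. Nuclei with at least 4 panel genes and any exclusion genes, as a share of gated nuclei, kept the direction of members, at 0.49 and −0.86.

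Genes called at 2-fold numbered 2255, 935, 801, 1020 and 1086 in the order Tgfbr2-cKO and ADWA11 at 7 dpi, the same at 21 dpi, and Ctrl over time. They were 456 (Tgfbr2-cKO at 7 dpi), 295 (at 21 dpi), 517 (ADWA11 at 21 dpi) and 696 (time) in unmixed members, 1445 and 656 (Tgfbr2-cKO at 7 and ADWA11 at 21 dpi) in female nuclei, and 527, 386, 582 and 509 in male nuclei. They were 1496, 530 and 603 with 5 panel genes, 603, 483 and 610 without doublets, 1403, 505, 320, 264 and 414 in members with no exclusion gene, 1017, 375, 228, 332 and 299 at a minimum of 200 UMIs, and 1366, 1633 and 1757 (21 dpi and time) at 20 UMIs.

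List medians changed sign mostly for Tgfbr2-cKO at 7 dpi. Unmixed members gave scar and lipid 0.165, microglia 0.123, lipid handling 0.129, matrix proteolysis 0.0534, TGFβ signalling 0.0852, transcription factors 0.0693, and, from medians nearer to 0, inflammatory cytokines 0.159 and alternative activation 0.369. Male nuclei gave microglia 0.0209, lipid handling 0.0933, antigen presentation 0.285, TGFβ signalling 0.0238 and transcription factors 0.0283, and antigen presentation in Ctrl over time −0.124. Without doublets they were microglia 0.0574, lipid handling 0.164, matrix proteolysis 0.00135, TGFβ signalling 0.0483 and transcription factors 0.0391. Antigen presentation gave 0.0131 with 5 panel genes, 0.00867 at 200 UMIs and 0.233 with no exclusion gene. With 5 panel genes the osteoclast fusion list in ADWA11 at 7 dpi gave 0.0982 and alternative activation in Tgfbr2-cKO at 21 dpi −0.585. The cause of these changes was not tested beyond the neuron and fibroblast marks given above. Of the values of genes named by size, which were chosen to have the same sign in both sexes, 439 stayed within the counting interval, 161 moved and none reversed. Of those of called list genes named in the text, 493 stayed, 195 moved and 11 reversed. In nuclei called female these were Ltbp2 (0.430, ADWA11 at 7 dpi), Msr1 (−0.746), Mmp12 (−1.29) and Ccl4 (−1.91; ADWA11 at 21 dpi), and Ccl4 (−0.118) and Tnf (−2.53; Tgfbr2-cKO at 21 dpi), and in those called male Bub1 (0.0824, Tgfbr2-cKO at 7 dpi). In members with no exclusion gene they were Il1a (−0.639), Timp3 (0.946) and Mmp19 (−0.961) in ADWA11 and Tnf (−0.463) in Tgfbr2-cKO, at 21 dpi. Over the called genes of every list, 38 of 260 pairs of gene and comparison changed sign under at least 1 alternative.

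The time test called 0 genes with edgeR, 178 with DESeq2, 9 without a filter, 15 without doublets, 92 in members chosen at 3000 UMIs, 40 in unmixed members and 0 to 127 with 1 library left out. It also called 0 with DESeq2 size factors in edgeR, without the condition block and with at least 5 panel genes. In members with fewer than 2 cell cycle genes the time test called 0 as well. The test of ADWA11 over both times called 0 genes with edgeR, 85 with DESeq2, 53 without doublets, 70 in unmixed members and 0 to 97 with 1 library left out, and that of Tgfbr2-cKO 12, 465, 66, 0 and 0 to 464. No paired analysis was possible because each group was 1 library, with a single replicate number, beyond the blocks of condition and of time in these tests. With 1 library per group, depth limits genes under 50 UMIs, and no interval here covers the spread between mice.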
